A study of Rattus norvegicus with 90 samples.

Results

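Livers of pregnant rats and of their own fetuses were set against each other for the response to the highest dose of NBP2 (Nafion byproduct 2, a per- and polyfluoroalkyl substance formed in the making of fluoropolymers). The libraries were chosen by their labels: every library titled Maternal_GD21 or Fetal_GD21 with a dose of 30 or 0 mg/kg/d, which gave 12 of the 90 libraries of the series. The question asked of each gene was whether the change at 30 against 0 mg/kg/d differed between dam and fetus, and that difference is given as dam minus fetus on the log2 scale, so that a positive value means a higher response in the dam.

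The animals were Sprague-Dawley rats (Crl:CD(SD)), and NBP2 was given by mouth to the dams. The groups were dams at 30 mg/kg/d (dams 2141, 2142 and 2143), dams at 0 mg/kg/d (dams 2129, 2130 and 2131), fetuses of the dams at 30 mg/kg/d and fetuses of the dams at 0 mg/kg/d, with 3 libraries in each. Fetuses received no dose of their own. Titles give gestation day (GD) 21 and the age entry gives GD 20 for the same libraries. Dosing began on GD 17 and all 12 libraries belong to study block 144. Each dam has 1 fetal library. Whether that library came from 1 fetus or from several is not stated, fetal sex is not given, and the vehicle of the controls is not given in the sources used here. RNA was counted by TempO-Seq, in which 2 probes that meet on a transcript are joined and the joined product is sequenced.

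Liver clears lipophilic and foreign compounds with enzymes that nuclear receptors switch on. CAR and PXR raise cytochromes P450 of the 2B and 3A families, epoxide hydrolase and several transporters. NRF2 and AhR raise glutathione transferases and quinone reductases. PPAR-alpha, the receptor for fatty acids, raises fatty acid binding protein, fatty acid hydroxylases of the Cyp4a family and the enzymes of beta-oxidation. Before birth the liver is also the main site of blood formation, and many of the drug-metabolising enzymes reach adult levels only after birth.

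Of the 28 genes named by rule, 22 have an entry among the RefSeq promoters (build GRCr8). Only 3 promoters are shown, as examples from the contrasts below: Gsta2, whose response differed between dam and fetus, Fabp1, called in the fetus, and Cyp3a23/3a1, 1 of several genes called in the dam. Each is the 250 bases before the annotated gene start, 5′ to 3′ on the gene's strand, with motif matches in capitals. Matches were searched on both strands. In Gsta2 (chr8:88077093-88077342, minus strand) the capitals are 2 adjoining matches of GCGTG, on opposite strands and sharing no base, the core of the AhR (dioxin) element, and a match lies in 25.9% of the 33469 promoters. In Fabp1 (chr4:104749090-104749339, plus strand) they are the half-sites TGACCT and TGNCCT with 1 base between them, a direct repeat of the kind that PPAR-alpha binds, found in 0.0866% of promoters. In Cyp3a23/3a1 (chr12:14398804-14399053, minus strand, listed in RefSeq as Cyp3a23-3a1) they are TGAACT repeated with 3 bases between, a direct repeat of the kind that PXR binds, found in 0.00598% of promoters. TGACNNNGC, the core of the antioxidant element of NRF2, was searched too and lies in 10.1% of promoters, among them that of Gstm7. Among the named genes, only Fabp1 had the first repeat and only Cyp3a23/3a1 the second. Dhrs7l1, Cyp4a2, Cyp4a3, Acot1, Ehhadh, Pdk4, Eci1 and Hadha had no match of any motif searched. Cyp2b1 had only GCGTG, and Ephx1 only TGACNNNGC. A match is only a description of the letters.
Gsta2: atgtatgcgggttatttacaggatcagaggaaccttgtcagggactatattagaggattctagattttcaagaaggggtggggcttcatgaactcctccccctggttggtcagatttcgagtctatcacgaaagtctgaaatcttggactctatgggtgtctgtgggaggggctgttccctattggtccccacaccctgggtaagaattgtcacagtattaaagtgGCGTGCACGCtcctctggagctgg
Fabp1: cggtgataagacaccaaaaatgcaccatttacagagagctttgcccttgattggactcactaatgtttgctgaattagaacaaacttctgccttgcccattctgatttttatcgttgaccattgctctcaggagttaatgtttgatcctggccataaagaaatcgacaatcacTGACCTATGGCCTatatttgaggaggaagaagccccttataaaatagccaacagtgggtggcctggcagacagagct
Cyp3a23/3a1: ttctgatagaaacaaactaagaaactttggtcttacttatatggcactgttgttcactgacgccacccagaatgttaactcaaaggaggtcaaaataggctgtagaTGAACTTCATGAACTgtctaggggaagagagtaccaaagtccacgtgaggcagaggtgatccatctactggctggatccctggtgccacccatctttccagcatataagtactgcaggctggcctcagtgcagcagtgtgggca

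Library totals ran from 5096140 to 6998829 counts, with 12096 to 13542 genes counted in 11 of the libraries. The fetus of control dam 2129 stood apart with 17485 genes. It had 376 CPM (depth-scaled counts) in odorant, taste and vomeronasal receptor genes, against 18.0 to 32.8 CPM in the other 11 libraries. These receptor sums were scaled by library total alone. Haemoglobin genes took 14.2, 5.12 and 5.10% of the counts in fetuses at 30 mg/kg/d (dams 2141, 2142 and 2143), 16.0, 12.8 and 3.97% in fetuses at 0 mg/kg/d (dams 2129, 2130 and 2131), and 0.0415 to 0.150% in the 6 dams. Fetal liver genes such as Afp summed to 72.8 to 419 CPM in the 6 dams and to 11105 to 24902 CPM in the 6 fetuses, so the libraries carried the markers of their labels. Genes of the Y chromosome were counted in fetuses 2142 and 2143 at 30 mg/kg/d and in fetus 2129 at 0 mg/kg/d, but hardly in the other 3 fetuses. In these bulk samples fewer cells of a type and less RNA per cell cannot be told apart.

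One gene passed the test for a difference of responses. Gsta2, a glutathione transferase of the alpha class that joins glutathione to reactive compounds, rose in the dam and fell in the fetus. Treated dams 2141, 2142 and 2143 had 777, 926 and 819 CPM of Gsta2, against 327, 249 and 272 CPM in control dams 2129, 2130 and 2131. The fetuses of the treated dams had 24.9, 22.6 and 22.4 CPM, against 54.0, 82.7 and 67.5 CPM in the fetuses of the control dams. Neither pair of groups overlapped, and the dams moved up while the fetuses moved down. In the dam the log2 fold change was 1.57 ± 0.21 (SE; edgeR quasi-likelihood test, adjusted p = 0.0133) and in the fetus it was −1.55 ± 0.22 (adjusted p = 0.0377). The difference was 3.12 ± 0.31, with a 95% confidence interval of 2.46 to 3.78 and an adjusted p of 0.00127 over the 10167 genes tested. Within each dam, the log2 ratio of dam to fetus was 4.95, 5.34 and 5.17 at 30 mg/kg/d and 2.59, 1.59 and 2.00 at 0 mg/kg/d. With the dam as a block, so that each fetus was compared with its own mother, the difference was nearly the same, 3.11 ± 0.37, but its adjusted p was 0.061 and the call ended.

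The count of called differences was thus 1 of 10167 genes (0.00984%), higher in the dam. At an unadjusted p under 0.05 there were 268 genes (2.64% of those tested), 189 (1.86%) with the higher response in the dam and 79 (0.777%) with the higher response in the fetus. Most of these 268 had fitted changes of opposite sign in the 2 livers, 162 up in the dam and down in the fetus and 59 down in the dam and up in the fetus. Genes picked for a large difference tend to have opposite signs, so this split follows in large part from the selection. The dam block gave 0 calls (0%) and 242 genes (2.38%) at an unadjusted p under 0.05. The shares of 2.64% and 2.38% are below what that threshold would give if no gene differed. DESeq2 called 12 genes: Gsta2, Fabp1, Dhrs7l1, Gstm7, LOC100910127, Ephx1, Pctp, Gsta5, Mt1m, Pnpla5, Rhbg and Aox1. A fit with all 30 GD21 libraries, in which the other doses add to the estimate of spread, called 4 of 10794 (0.0371%): Gsta2, Gstm7, Ephx1 and Fabp1. In that fit Gsta2 stood at 3.09 (adjusted p = 0.0372).

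**Figure D1:**
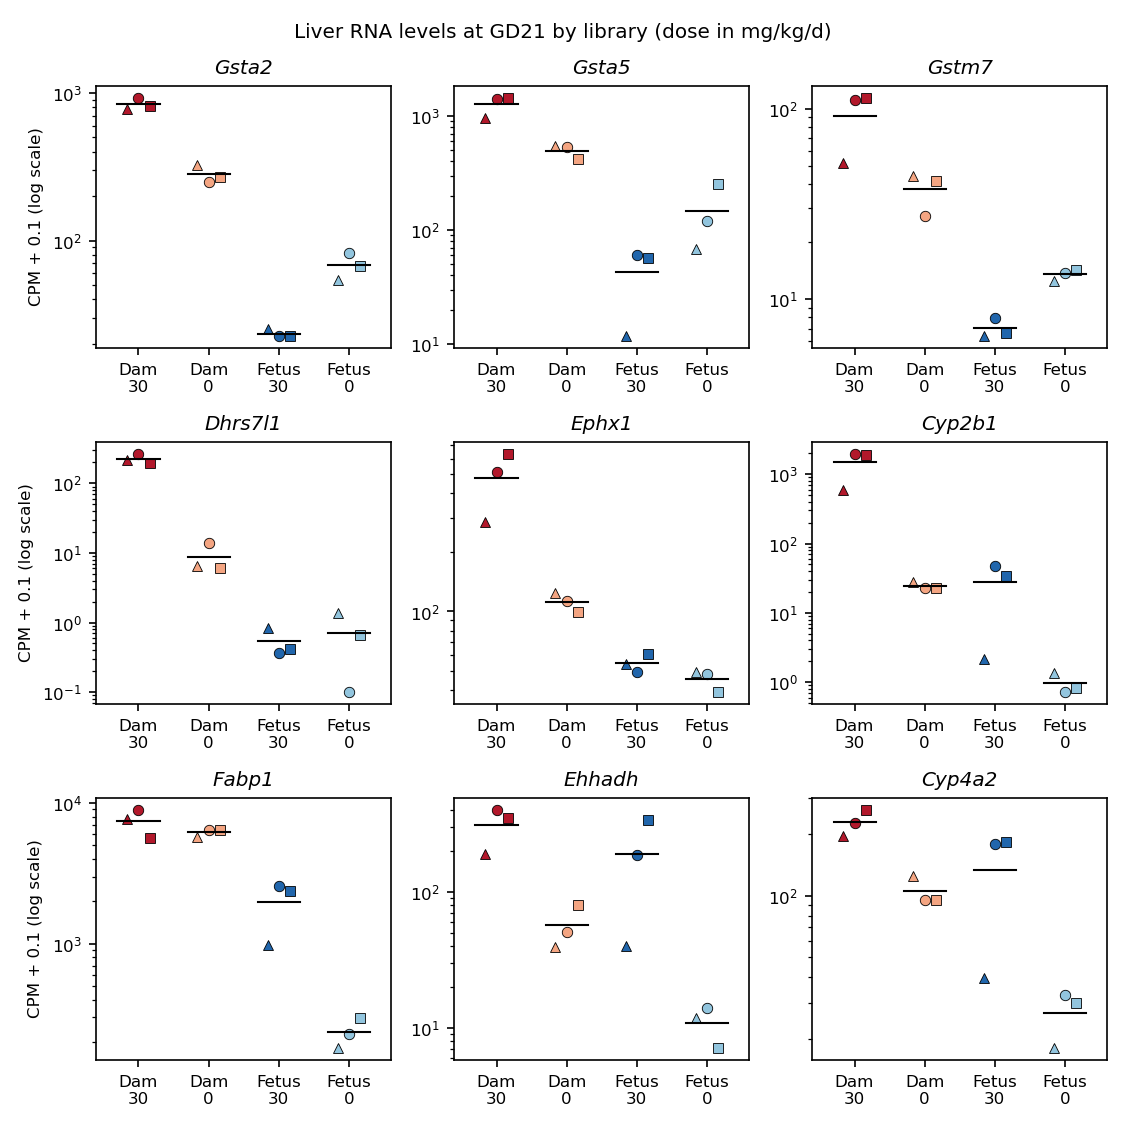
Levels of 9 genes in each of the 12 libraries, in CPM plus 0.1 on a log axis, for dams at 30 and 0 mg/kg/d and fetuses at 30 and 0 mg/kg/d. Triangles, circles and squares are the libraries of dams 2141, 2142 and 2143 at 30 mg/kg/d and of dams 2129, 2130 and 2131 at 0 mg/kg/d; bars are means. Gsta2, Gsta5 and Gstm7 are higher in treated than in control dams and lower in treated than in control fetuses, while Fabp1 separates treated from control fetuses and not the dams.

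Single libraries did not end the Gsta2 difference: with each of the 12 left out in turn it lay between 2.93 and 3.24, called every time (adjusted p 0.00126 to 0.0149). Leaving out both libraries of dam 2142 or of dam 2143 ended the call (2.99, adjusted p = 0.0703, and 3.11, adjusted p = 0.0518), and leaving out any of the other 4 dams did not. The change within each liver was less firm. The dam call ended without dam 2142, 2143, 2129, 2130 or 2131 (adjusted p 0.057 to 0.163), and the fetal call held only without fetus 2141 or fetus 2131. In the file Gsta2 lies on chromosome 8 from 85640055 to 85645719 on the minus strand, in the rn6 coordinates named by the submitters' notes. Some of its deposited counts are not whole numbers, and how reads shared among features were counted is not stated. RefSeq lists Gsta2 also as a synonym of Gsta5, so the levels of the 2 genes cannot be fully told apart here.

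Gsta5 and Gstm7, 2 further glutathione transferases, lay on the same side as Gsta2, without a call. Gsta5, another alpha-class enzyme on chromosome 8, had 963, 1424 and 1448 CPM in treated dams, against 543, 534 and 419 CPM in control dams. In fetuses of treated dams it had 11.6, 60.7 and 56.2 CPM, against 68.2, 121 and 254 CPM in fetuses of control dams. Its groups did not overlap in either liver, and its difference was 3.15 ± 0.76 (adjusted p = 0.956). Gsta5 lies outside the naming rule and was chosen after its values were seen.

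Gstm7, a mu-class transferase, had 51.5, 110.2 and 114 CPM in treated dams, against 43.9, 27.2 and 41.3 CPM in control dams. Fetuses of treated dams had 6.29, 7.88 and 6.56 CPM, against 12.4, 13.6 and 14.2 CPM in the fetuses of control dams. Again no groups overlapped, up in the dam and down in the fetus, with a difference of 2.24 ± 0.41 (adjusted p = 0.38; with the dam block 2.19, adjusted p = 0.457). Without dam 2141 alone it was 2.53 and called (adjusted p = 0.0269). Of the 17 glutathione transferase genes tested, a family gathered after its values were seen, 13 had a positive difference and 4 a negative one, with a median of 0.62, against 0.004 over all genes tested. The within-dam ratio of dam to fetus was higher in every treated pair than in every control pair for 7 of the 17 and lower in every treated pair for 0. Over all genes tested the same was true of 3.72% and 2.89%. Gsta2, Gsta5 and Gstm7 are among the 7, so that count in part repeats the genes described above.

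The called drug-metabolising genes other than Gsta2 were called in the dam and not in the fetus. In maternal liver 6 of 10167 genes were called at 30 against 0 mg/kg/d (0.059%), all higher: Dhrs7l1, Ephx1, AABR07035374.1, Gsta2, Cyp2b1 and Cyp3a23/3a1. In fetal liver 2 were called (0.0197%), Fabp1 higher and Gsta2 lower. At an unadjusted p under 0.05 there were 405 genes (3.98%) in the dam and 380 (3.74%) in the fetus. Both shares are below what that threshold would give if no gene changed. AABR07035374.1 is a gene model without a symbol and is only counted here.

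Dhrs7l1, a member of the short-chain dehydrogenase family, had 214, 266 and 195 CPM in treated dams, against 6.30, 14.0 and 6.04 CPM in control dams. It was near the limit of detection in every fetus, with 0.740, 0.267 and 0.320 CPM in fetuses of treated dams and 1.25, 0 and 0.572 CPM in fetuses of control dams. It rose in the dam by 4.67 ± 0.48 (adjusted p = 0.00245), while the fetal change of −0.36 ± 0.84 rests on very few counts. The difference was 5.03 ± 1.01 (adjusted p = 0.417). Its dam call ended without control dam 2129 (adjusted p = 0.0715) or control dam 2131 (adjusted p = 0.07).

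Ephx1, microsomal epoxide hydrolase, which opens reactive epoxides, had 285, 510.1 and 634 CPM in treated dams, against 124, 113 and 98.7 CPM in control dams. Fetuses of treated dams had 53.7, 49.3 and 60.3 CPM, against 49.1, 48.2 and 38.8 CPM in the fetuses of control dams. The groups did not overlap in either liver, though in the fetus only just, and in the dam it rose by 2.09 ± 0.27 (adjusted p = 0.012). The fetal change was 0.26 ± 0.26 (adjusted p = 1) and the difference was 1.83 ± 0.37 (adjusted p = 0.418). Its dam call ended without dam 2142 (adjusted p = 0.072), 2129 (0.0747), 2130 (0.145) or 2131 (0.158). Without both libraries of dam 2141 the difference was 2.08 and called (adjusted p = 0.0429).

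Cyp2b1, the phenobarbital-type cytochrome P450 and the usual sign of CAR activity in rats, was far above the controls in every treated dam. Treated dams had 589.7, 1965 and 1903 CPM, against 28.2, 23.0 and 22.5 CPM in control dams. Fetuses of treated dams had 2.10, 46.8 and 33.5 CPM, against 1.25, 0.620 and 0.715 CPM in the fetuses of control dams. It rose in the dam by 5.92 ± 0.85 (adjusted p = 0.019), and the fetal value was 4.97 ± 0.92 (adjusted p = 0.22). Dam 2141 was the lowest treated library in both livers. The difference was 0.95 ± 1.22, with a 95% confidence interval of −1.68 to 3.58, so a response of equal size and a several-fold difference either way both lie within its error. Cyp2b2, its near copy, had 798, 2278 and 2114 CPM in treated dams, against 35.0, 14.2 and 47.6 CPM in control dams, and at most 9.60 CPM in any fetus. Its difference was 4.15 ± 1.43 (adjusted p = 1). Cyp2b1 and Cyp2b2 both have deposited counts that are not whole. How shared reads were counted is not stated, so the 2 may not be fully separate measurements. The deposited position of Cyp2b1 is on chromosome 7 (rn6), against chromosome 1 for its RefSeq promoter (GRCr8).

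Cyp3a23/3a1, the rat cytochrome P450 most used as a sign of PXR activity, had 1722, 7072 and 5818 CPM in treated dams, against 186, 179 and 213 CPM in control dams. Fetuses of treated dams had 16.9, 5.48 and 3.20 CPM, against 2.08, 2.97 and 0.429 CPM in the fetuses of control dams. It rose in the dam by 4.66 ± 0.69 (adjusted p = 0.0224), with a fetal value of 2.20 ± 0.71 (adjusted p = 0.971) and a difference of 2.46 ± 0.94 (adjusted p = 1). The dam calls of Cyp2b1 and Cyp3a23/3a1 each ended without dam 2142, 2143, 2129, 2130 or 2131 (adjusted p 0.057 to 0.23).

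Over the list of CAR and PXR targets, 23 of 42 entries were tested. For the difference 1 was called, Gsta2, and the median was 1.04, against 0.004 over all genes. The dam called 4 of the 23, all higher, with a median log2 fold change of 1.497, and 16 had every treated dam above every control dam, against 6.24% of all genes. The fetus called 1, Gsta2, lower, with a median of 0.26, and 5 had every treated fetus above every control fetus, against 2.12% of all genes. The opposite order, every treated below every control, held for 1 member in the dam and 2 in the fetus. The share of all genes in that order is not given here, so these downward counts cannot be judged. The within-dam ratio separated the doses upward for 9 of the 23 and downward for 0, against 3.72% and 2.89% of all genes. Further members with a higher response in the dam at an unadjusted p under 0.05 were Akr7a3, an aldehyde reductase, at 4.13, Alas1, the first enzyme of haem synthesis, at 1.68, and Ugt1a6, a glucuronosyltransferase, at 1.58, all with unadjusted p of 0.00142 to 0.0333 and no call. These 3 were chosen after their values were seen, as was Aldh1a1, an aldehyde dehydrogenase, at 2.27 ± 0.45 in the dam and 2.25 ± 0.51 in the fetus (adjusted p = 0.17 and 0.34).

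**Figure D2:**
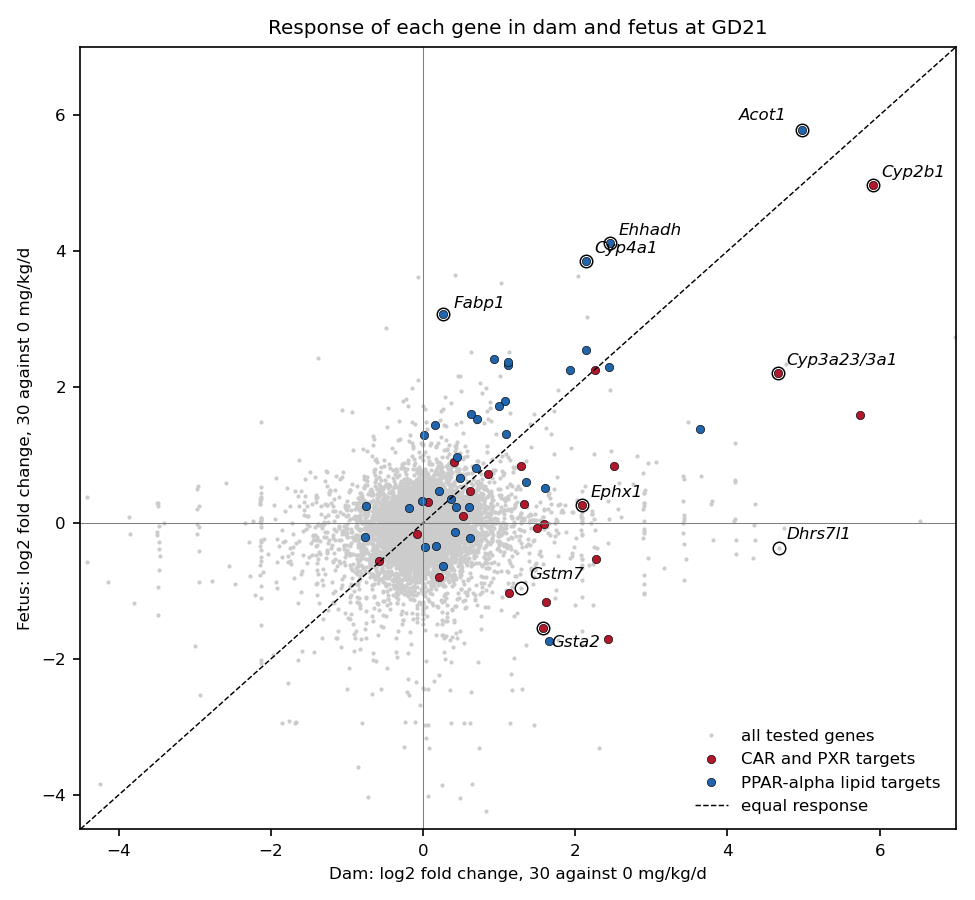
Log2 fold change at 30 against 0 mg/kg/d in the dam (horizontal axis) and the fetus (vertical axis) for 10162 of the 10167 genes tested; 5 lie beyond the axes. Red and blue points are the listed CAR and PXR targets and PPAR-alpha lipid targets, open rings mark labelled genes, and the dashed line is an equal response. Gsta2 lies at 1.57 in the dam and −1.55 in the fetus, and Fabp1 at 0.26 in the dam and 3.07 in the fetus.

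The NRF2 list (18 of 29 tested) and the AhR list (5 of 11 tested) each held Gsta2 as the called difference. Their medians were 0.41 and 1.58, and the within-dam ratio separated the doses upward for 5 of 18 and 3 of 5, against 3.72% of all genes, and downward for 0 in both, against 2.89%. Nqo1, a quinone reductase on both lists and named after its values were seen, had 23.4, 46.3 and 49.9 CPM in treated dams, against 35.7, 29.4 and 17.2 CPM in control dams. In fetuses of treated dams it had 1.97, 4.41 and 7.04 CPM, against 19.7, 18.3 and 6.87 CPM in fetuses of control dams. Both pairs of groups overlapped, and the difference was 2.30 ± 0.67 (adjusted p = 1). Of other NRF2 targets, also picked with values known, the glutathione synthesis enzyme Gclc stood at −0.31, thioredoxin reductase Txnrd1 at −0.03 and haem oxygenase Hmox1 at −0.45.

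Fabp1, which carries fatty acids within liver cells, rose in the fetus, and it was not called in the dam, where it was already abundant. The fetuses of treated dams 2141, 2142 and 2143 had 983, 2557 and 2364 CPM, against 181, 228 and 295 CPM in the fetuses of control dams 2129, 2130 and 2131. Treated dams had 7687, 8925 and 5601 CPM, against 5713, 6392 and 6468 CPM in control dams. The fetal groups lay far apart and the dam groups overlapped. In the fetus it rose by 3.07 ± 0.37 (adjusted p = 0.0157), and the dam value was 0.26 ± 0.35 (adjusted p = 1). The difference was −2.81 ± 0.50, with a 95% confidence interval of −3.88 to −1.73, but its adjusted p of 0.38 did not pass. Left out alone, the fetus of dam 2141 made the difference −3.13 and called (adjusted p = 0.00208). The fetal call of Fabp1 ended without fetus 2142, 2143, 2129 or 2130 or without dam 2131 (adjusted p 0.0519 to 0.177).

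Abundant transcripts were attenuated in all libraries alike, per the labels, and a gene as abundant as Fabp1 in the dam could be among them. Whether Fabp1 was attenuated is not stated, and its part in the small dam value was not tested.

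Ehhadh, the bifunctional enzyme of peroxisomal beta-oxidation, had 189, 400.1 and 347 CPM in treated dams, against 39.2, 50.5 and 79.9 CPM in control dams. Among fetuses, those of treated dams had 39.9, 186 and 339 CPM, against 11.7, 13.9 and 7.01 CPM in the fetuses of control dams. No groups overlapped in either liver. Its values were 2.46 ± 0.59 in the dam and 4.11 ± 0.64 in the fetus (adjusted p = 0.381 and 0.0661), with a difference of −1.65 ± 0.81 (adjusted p = 1).

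Of the fatty acid hydroxylases, Cyp4a2 had 197, 226 and 263 CPM in treated dams, against 125, 95.3 and 94.97 CPM in control dams, and 39.6, 178 and 183 CPM in fetuses of treated dams, against 17.9, 32.6 and 29.7 CPM in fetuses of control dams. Its difference was −1.20 ± 0.61 (adjusted p = 1), and that of its near copy Cyp4a3 was −1.25 ± 0.63. Cyp4a3 had 325, 373 and 433 CPM in treated dams, against 206, 157 and 156 CPM in control dams. It kept a nearly fixed proportion to Cyp4a2 in every library but control fetus 2129 (25.0 CPM of Cyp4a3). The 2 are therefore not taken as separate measurements. Cyp4a1 had 465, 583 and 762 CPM in treated dams, against 107, 135 and 167 CPM in control dams. Among fetuses, those of treated dams had 3.21, 82.8 and 112 CPM of Cyp4a1, against 4.58, 6.69 and 2.29 CPM in fetuses of control dams, so fetus 2141 lay within the controls. The difference of Cyp4a1 was −1.71 ± 1.08, and with fetal sex as a term it was 0.08.

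Acot1, an acyl-CoA thioesterase, had 35.2, 53.02 and 162 CPM in treated dams, against 0, 0 and 7.55 CPM in control dams. Among fetuses, those of treated dams had 17.01, 154 and 121 CPM, against 1.94, 1.36 and 2.00 CPM in the fetuses of control dams. Both livers separated upward, and the difference of −0.80 ± 1.502 had no fixed sign: it was 0.09 with the dam block, 0.28 with fetal sex as a term and 6.25 without control dam 2131, the one control dam with counts. Vnn1, a pantetheinase, had 73.2, 288 and 337 CPM in treated dams, against 25.9, 18.6 and 83.5 CPM in control dams, and 28.8, 329 and 441 CPM in fetuses of treated dams, against 29.3, 70.0 and 63.1 CPM in fetuses of control dams. Its difference was 0.15 ± 1.13, with a 95% confidence interval of −2.30 to 2.59.

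Over the list of PPAR-alpha lipid targets 37 of 52 entries were tested, and 0 were called for the difference, whose median was −0.34. The median log2 fold change was 0.63 in the dam, with 0 called, and 0.98 in the fetus, with 1 called, Fabp1. Every treated dam was above every control dam for 18 of the 37, against 6.24% of all genes. Every treated fetus was above every control fetus for 10, against 2.12% of all genes, and below for 1, Cidec, a protein of lipid droplets, at −0.34. The share of all genes in that downward order is not given here. The within-dam ratio separated the doses upward for 1 of the 37, Pnpla2, against 3.72% of all genes. It separated them downward for 2, Fabp1 and Cpt1b, against 2.89%, so neither count sets the list apart. Eci1, Hadha, Pdk4 and Cpt1a, all of fatty acid oxidation or its control, and Lpl, lipoprotein lipase, had differences of 0.85, −0.17, 1.08, −0.82 and −0.26, with SEs of 0.31 to 0.87 and an adjusted p of 1 each.

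The fetus of dam 2141 stood apart among the treated fetuses. The chi-square per degree of freedom of its counts was 152 and 155 against the other treated fetuses, which differed from each other by 12.4. It had no Y-linked counts, and its haemoglobin share of 14.2% was above the 5.12 and 5.10% of the other treated fetuses. Mature hepatocyte genes summed to 9216 to 19369 CPM in treated fetuses and 15003 to 20079 CPM in control fetuses. Without that fetus 39 genes were called in the fetus, 36 of them higher. Ehhadh, Cyp4a1, Cyp4a2, Cyp4a3, Cyp2b1 and Acot1 were then called (4.58, 4.40, 2.75, 2.80, 5.504 and 6.27, adjusted p 0.000138 to 0.00912). Without that fetus the difference was called for 3 genes, 1 higher and 2 lower, and not for Ehhadh, Cyp4a1, Cyp4a2 or Cyp4a3 (−2.13, −2.26, −1.63 and −1.69, adjusted p 0.324 to 0.497). Without both libraries of dam 2141, 5 differences were called, 4 higher and 1 lower, among them Gsta2 at 3.22, Gstm7 at 2.46, Ephx1 at 2.08 and Fabp1 at −3.16. Without fetus 2131 of the controls, which differed from the other control fetuses by a chi-square per degree of freedom of 116 to 133, the fetal count was 15, 4 higher and 11 lower, and without fetus 2129, the library with many receptor genes, it was 0. The part of haemoglobin share and of fetal sex in these counts was not tested beyond the fit with fetal sex as a term. That fit called 0 genes in the fetus and 1 for the difference, Gsta2 at 3.00 (adjusted p = 0.00459).

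The remaining genes with the smallest p for the difference fall outside these pathways. Rhbg, an ammonium transporter, had 2.74, 2.96 and 6.12 CPM in treated dams, against 1.17, 1.20 and 1.13 CPM in control dams, and 8.88, 6.41 and 5.28 CPM in fetuses of treated dams, against 13.05, 17.5 and 10.3 CPM in fetuses of control dams. Its groups separated upward in the dam and downward in the fetus (2.73 ± 0.54, adjusted p = 0.417). Pctp, a phosphatidylcholine transfer protein, did the reverse. It had 115, 155 and 135 CPM in treated dams, against 167, 179.9 and 250.4 CPM in control dams, and 182, 179.5 and 189 CPM in fetuses of treated dams, against 94.2, 105 and 128 CPM in fetuses of control dams (−1.32 ± 0.30, adjusted p = 0.877).

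Cabp2, a calcium-binding protein, had 0.740, 0.534 and 0.8003 CPM in fetuses of treated dams, against 2.64, 3.22 and 2.00 CPM in fetuses of control dams, and 28.4 to 38.5 CPM in all dams (1.71 ± 0.37, adjusted p = 0.539). Mt1m, a metallothionein with near copies, had 7.18, 1.18 and 6.49 CPM in treated dams, against 1.40, 1.00 and 0.755 CPM in control dams, and 63.5, 55.6 and 73.6 CPM in fetuses of treated dams, against 165, 213 and 65.1 CPM in fetuses of control dams (3.44 ± 0.81, adjusted p = 0.925). LOC100910127, a locus without a symbol, had 3.80, 2.37 and 3.71 CPM in treated dams and 0 in the 3 control dams, and 0 to 1.25 CPM in all fetuses, too few counts for a fold change.

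Lipid synthesis lists had negative median differences, with 0 called. The median difference was −0.64 for fatty acid synthesis (19 of 26 tested) and −0.35 for cholesterol biosynthesis (19 of 24 tested), and the within-dam ratio separated the doses downward for 4 and 2 of them, against 2.89% of all genes. It separated them upward for 1 fatty acid synthesis gene, Agpat2, and 0 cholesterol genes, against 3.72% of all genes. Scd, the stearoyl-CoA desaturase, named after its values were seen, had 22.9, 30.3 and 16.2 CPM in fetuses of treated dams, against 3.75, 6.20 and 6.15 CPM in fetuses of control dams. In treated dams it had 124, 174 and 65.4 CPM, against 128, 203 and 49.3 CPM in control dams. The fetal groups did not overlap and the dam groups did, with a difference of −2.17 ± 0.66 (adjusted p = 1). Pnpla5, a lipase of lipid droplets also named after its values were seen, had 28.0, 9.22 and 7.04 CPM in fetuses of treated dams, against 1.53, 0.620 and 4.00 CPM in fetuses of control dams, and 55.0 to 161 CPM in all dams, with a difference of −3.35 ± 0.82 (adjusted p = 0.956).

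Bile acid genes had a positive median difference, 0.72 over 12 of 22 tested, with 0 called, and 5 of the 12 had a within-dam ratio separated upward, against 3.72% of all genes. Slco1a4, an organic anion transporter, had 325, 495 and 319 CPM in treated dams, against 78.7, 155 and 139 CPM in control dams, and at most 1.39 CPM in any fetus (2.78 ± 1.05, adjusted p = 1). Cyp7a1, the first enzyme of bile acid synthesis, did not pass the filter on low counts, with at most 1.40 CPM in any library. Of the glucose genes, Pck1, the gluconeogenic carboxykinase, had 839.8, 596 and 1505 CPM in treated dams, against 474, 353 and 1375 CPM in control dams, and 0.740, 6.01 and 11.2 CPM in fetuses of treated dams, against 0.416, 0.248 and 0.715 CPM in fetuses of control dams. Its difference was −3.23 ± 1.16 (adjusted p = 1), and that of Igfbp1, a binding protein of insulin-like growth factors, was −0.15 ± 0.95. The other 13 lists of biology, gluconeogenesis and glycogen among them, had median differences between −0.56 and 0.32, with 0 called for the difference.

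**Figure D3:**
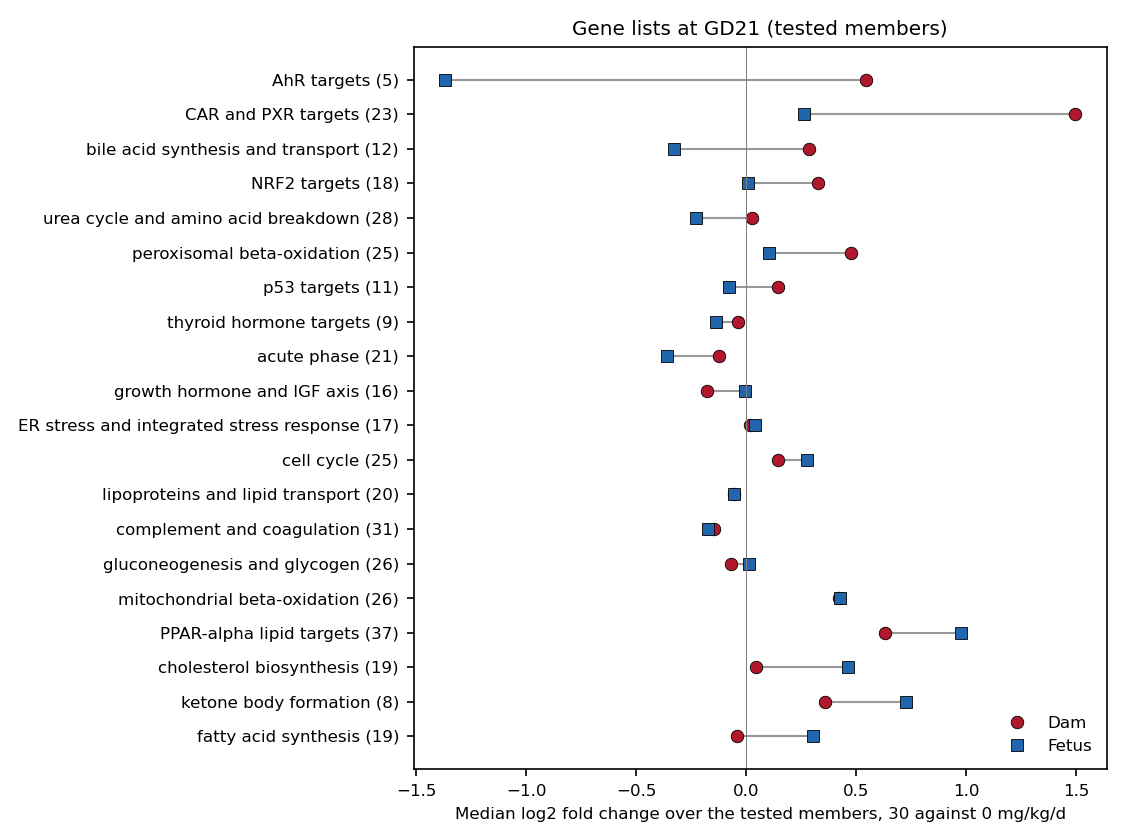
Median log2 fold change at 30 against 0 mg/kg/d in the dam (red circles) and the fetus (blue squares) over the tested members of each of the 20 biology lists, with the number tested in brackets, ordered by the median difference. AhR and CAR and PXR targets lie farther right in the dam (0.54 and 1.497, against −1.37 and 0.26 in the fetus), and PPAR-alpha lipid targets farther right in the fetus (0.63 in the dam, 0.98 in the fetus).

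None of the 16 marker lists held a called gene in either liver or for the difference. With 0.00984% of all genes called for the difference, 0.059% in the dam and 0.0197% in the fetus, this says little about cell types. Tested members numbered 0 for trophoblast and decidua, 1 for skeletal muscle, and 1 for kidney and adrenal. Erythroid markers summed to 51690 to 125731 CPM in treated fetuses and 43266 to 147764 CPM in control fetuses, with a median difference of −0.06 over 28 of 32 tested. Macrophage and Kupffer cell markers summed to 895 to 1143 CPM in treated dams and 1010 to 1595 CPM in control dams. Mature hepatocyte genes summed to 42623 to 51997 CPM in treated dams and 50345 to 66257 CPM in control dams. Acinar pancreas markers summed to 1055 to 3181 CPM in treated dams and 860 to 1768 CPM in control dams, and to 6.53 to 29.1 CPM in the 6 fetuses. The part of these cells in the differences above was not tested.

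The other doses of the same study block give levels between 0 and 30 mg/kg/d, over 3 libraries each and here scaled over the 30 GD21 libraries, so that values differ slightly from those above. Median Gsta2, in order of dose (0, then 1, then 3, then 10 and last 30 mg/kg/d), was 277, 442, 449.5, 413 and 834 CPM in dams and 67.7, 50.8, 85.7, 14.1 and 23.3 CPM in fetuses. Every dam at 3 mg/kg/d (380 to 465 CPM), 10 mg/kg/d (349.6 to 608 CPM) and 30 mg/kg/d (812 to 952 CPM) was above every control dam (256 to 338 CPM). Fetuses at 3 mg/kg/d (18.6 to 103 CPM) overlapped the control fetuses (56.5 to 85.2 CPM), and those at 10 mg/kg/d (13.2 to 30.3 CPM) were all below them. Median Gstm7 was 42.2, 44.9, 56.7, 69.6 and 113 CPM in dams and 14.1, 9.60, 14.0, 7.37 and 6.82 CPM in fetuses. Gstm7 thus had its order over the doses upward in the dams, and its 2 lowest fetal medians at the 2 highest doses.

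Median Fabp1 over the same doses was 6560, 5639, 5635, 8038 and 8034 CPM in dams and 235, 408, 533, 1176 and 2456 CPM in fetuses. In fetuses it was higher at each dose than at the one before. Median Ephx1 was 116, 123, 133, 207 and 525 CPM in dams and 49.7, 54.2, 58.6, 64.3 and 58.0 CPM in fetuses. Dams at 10 and 30 mg/kg/d lay above the control dams (101 to 128 CPM), and those at 3 mg/kg/d (105 to 144 CPM) overlapped them. Fetuses at 1 mg/kg/d (52.0 to 56.4 CPM), 3 mg/kg/d (57.4 to 90.5 CPM) and 10 mg/kg/d (58.4 to 72.3 CPM) all lay above the control fetuses (38.9 to 51.4 CPM). On this scale fetuses at 30 mg/kg/d (50.1 to 62.7 CPM) overlapped the control fetuses. These orders were not tested here, and the values at 30 and 0 mg/kg/d are those of the comparison itself.

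**Figure D4:**
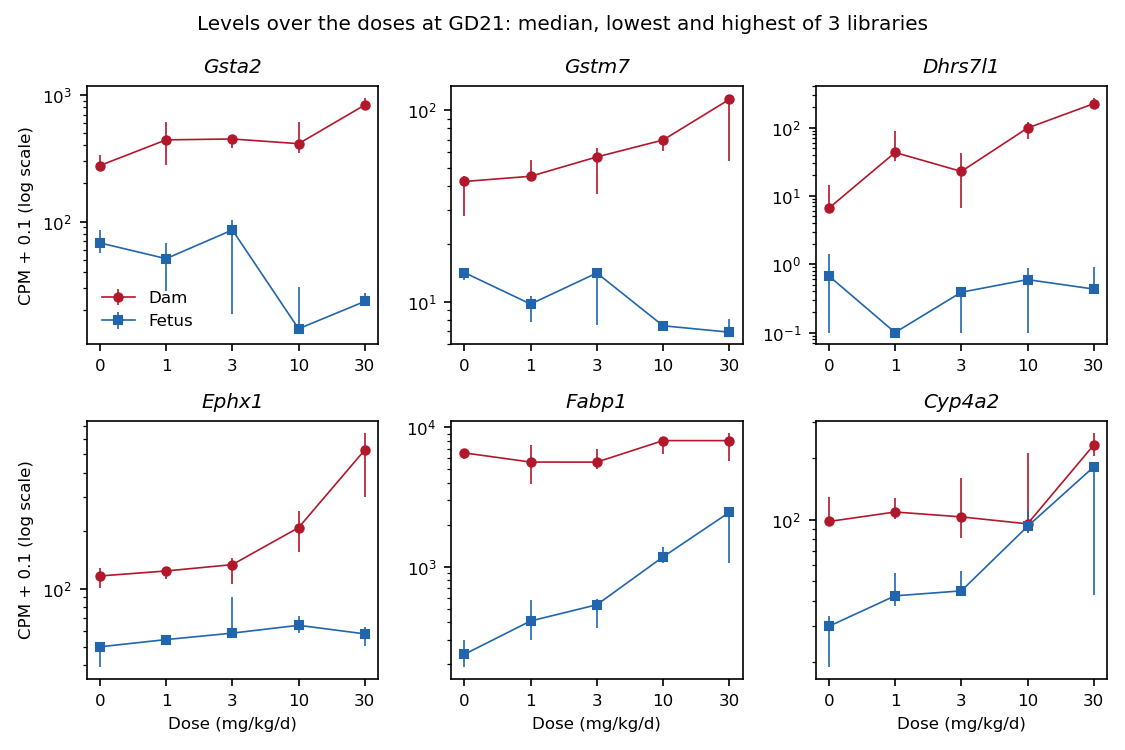
Levels of 6 genes at the 5 doses of GD21, low to high (mg/kg/d), in CPM plus 0.1 on a log axis, in dams (red circles) and fetuses (blue squares); points are medians and bars run from the lowest to the highest of 3 libraries. Median Gsta2 in fetuses is 14.1 CPM at 10 mg/kg/d, against 67.7 CPM at 0, and median Fabp1 in fetuses is 2456 CPM at 30 mg/kg/d, against 235 CPM at 0.

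Livers of other dams and fetuses, taken at GD 18 after dosing from GD 14, gave the same comparison in 20 libraries that share none with those above. They come from study blocks 140 and 143, and age and study block are the same split between the ages. Of 13953 genes tested, 443 had a called difference (3.17%), 416 (2.98%) higher in the dam and 27 (0.194%) higher in the fetus. That count depended on the libraries of block 140, where receptor genes summed to 3223 to 5545 CPM in dams and 204 to 3617 CPM in fetuses, against 26.0 to 60.4 CPM in dams and 18.0 to 41.8 CPM in fetuses of block 143. Such receptor genes were 94 of the 443 called (21.2%) and 810 of the 13953 tested. The count was 970 in block 140 alone, 4 in block 143 alone, 2 without a term for study block and 6 with the dam as a block. The median difference over all genes was 0.10. No gene was called at both ages (0 shared), and with only 1 gene called at GD21 this says little about the likeness of the ages.

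Of the 6 genes called at GD 18 with the dam block, 3 had the higher response in the dam and 3 in the fetus. The named genes called both with and without the block were the 3 on the fetal side. Of these, Cyp4a2 and Cyp4a3 are near copies, and both have deposited counts that are not whole. How shared reads were counted is not stated. At GD21 their levels kept a nearly fixed proportion, so these 2 are not taken as separate measurements. Fabp1 stood at −2.53 ± 0.42 (adjusted p = 0.0131; with the dam block 0.0384), close to its −2.81 at GD21. Cyp4a2 and Cyp4a3 stood at −2.65 ± 0.31 and −2.86 ± 0.35 (adjusted p = 0.000143 and 0.000213; 0.0031 with the dam block for both). The values were −3.28 and −3.67 within block 140 and −2.08 and −2.08 within block 143, and for Fabp1 −3.25 and −1.88 (adjusted p = 0.0297 and 0.0503). Without a term for study block the Fabp1 call ended (adjusted p = 0.0742). At GD 18 the dam values of Cyp4a2 and Cyp4a3 were −0.31 and −0.34 and the fetal values 2.34 and 2.52.

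On the side of the dam, Ephx1 stood at 1.54 ± 0.32 (adjusted p = 0.0197; with the dam block 0.145), Dhrs7l1 at 5.57 ± 0.98 (0.0152; 0.0709) and Cyp3a23/3a1 at 1.92 ± 0.38 (0.0166; 0.0917), so their calls ended with the block. Their GD21 values were 1.83, 5.03 and 2.46. Acot1 and Eci1, of fatty acid metabolism, were on the dam side too, at 2.67 ± 0.66 and 1.77 ± 0.46 (edgeR adjusted p = 0.035 and 0.0381; with the dam block 0.092 and 0.177). At GD21 they stood at −0.80 and 0.85. Slco1a4 and LOC100910127 on the dam side, and Pctp, Pnpla5 and Scd on the fetal side, were likewise called only without the block. Gsta2, in contrast, was not called at GD 18: 1.59 ± 0.66 (adjusted p = 0.163), with 1.71 ± 0.46 in the dam and 0.12 ± 0.47 in the fetus. Gstm7 stood at 0.08 ± 0.44 and Rhbg at −0.02 ± 0.49.

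The change of the difference between the ages was itself tested in a fit of all 32 libraries. None of 15081 genes passed (0%; edgeR), and 412 (2.73%) had an unadjusted p under 0.05, a share below what that threshold would give if no gene changed. DESeq2 was not run on this comparison. For Gsta2 the change was 1.63 ± 0.90, for Gstm7 2.26 ± 0.65, for Fabp1 −0.19 ± 0.66 and for Pck1 −5.32 ± 1.56, each with an adjusted p of 1. The difference of Gsta2 is therefore not shown to differ between the ages.

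**Figure D5:**
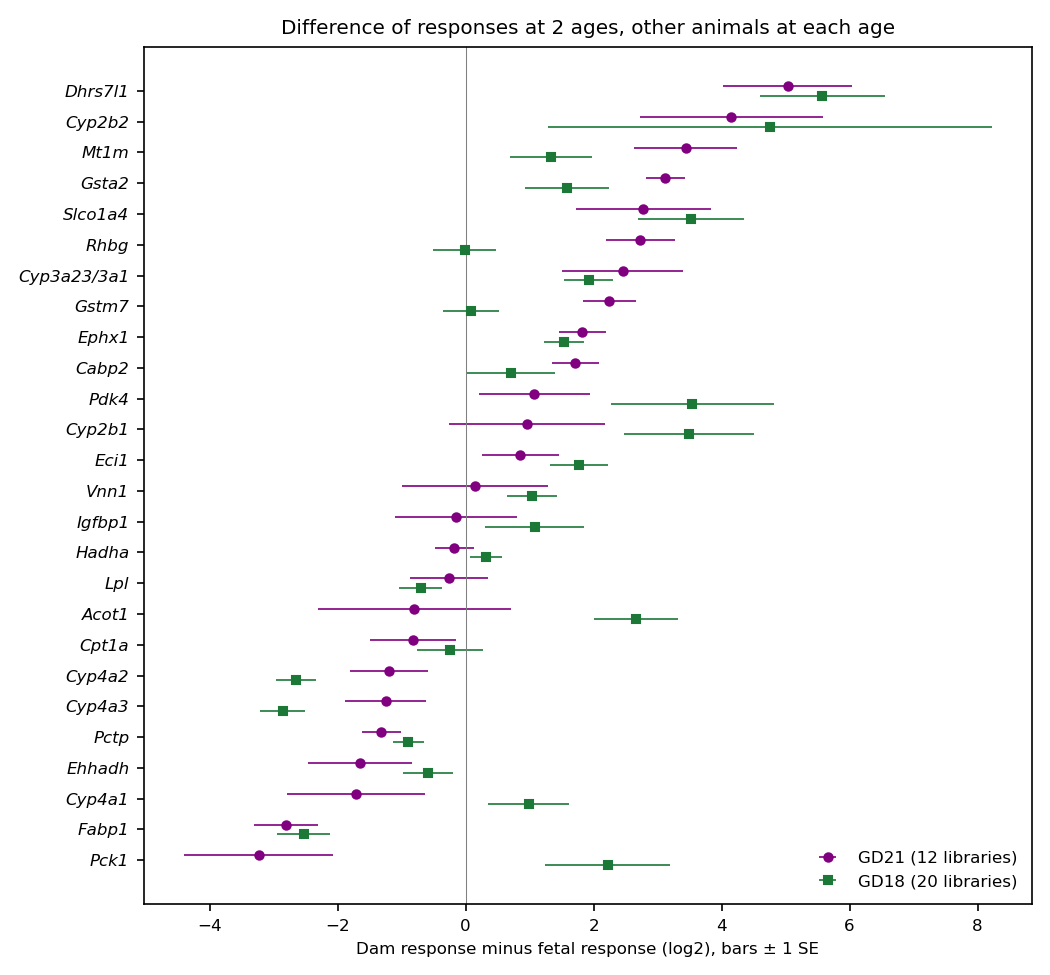
Dam response minus fetal response (log2) for the named genes tested at both ages, at GD21 (purple circles, 12 libraries) and GD 18 (green squares, 20 libraries of other animals); bars are ± 1 SE, and LOC100910127 is left out for its few counts. Fabp1 lies at −2.81 and −2.53, Gsta2 at 3.12 and 1.59, and Gstm7 at 2.24 and 0.08.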

How the data were processed

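TempO-Seq probes to 21119 genes were read on liver RNA with single reads of 50 bases, per the labels' protocols, which also state that overly abundant transcripts were attenuated equally in all samples. Per the submitters' processing notes, STAR 2.7.3a, Partek and genome build rn6 were used, with no role given. The authors deposited estimated counts per gene, not normalised, for 20833 genes; 7.61% of the values are not whole, over 4145 genes. Whole counts had been planned for, so values were rounded. A second deposited file was not used.

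The 12 libraries at 30 and 0 mg/kg/d were fitted together as 4 groups with edgeR 4.0.16 (R 4.3.3): filterByExpr, TMM, quasi-likelihood F tests, two-sided, Benjamini-Hochberg adjustment over the 10167 genes tested, threshold 0.05. The SE is the size of the log2 fold change over the square root of F, with a prior count of 0.125. CPM values are TMM-scaled, apart from the receptor sums at GD21, which are scaled by library total alone. Ratios of dam to fetus used a prior count of 2. Residual degrees of freedom were 8. Replicates are separate dams or litters; the precision is set by the spread between animals, with totals of 5096140 to 6998829 counts.

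Dam and fetus share a dam number in the labels, so numbers pair libraries by litter. Residuals of the 6 such pairs had a median correlation across genes of 0.111 (−0.008 to 0.134), and the 12 pairs of other dams had −0.052. Residuals were centred on group means of 3 libraries, which ties the 2 values to opposite signs. The second value is therefore no separate baseline, and genes are not independent replicates. The dam block was an alternative, with RLE factors, 2 other filters, DESeq2 1.42.0, all 30 GD21 libraries, scaling without haemoglobin genes, each liver alone and each library left out. Leaving out whole dams, fetal sex as a term (from Y-linked counts) and the GD 18 alternatives were added after the data were seen.

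Named genes were the called differences whose log2 CPM averaged 3 or more, the 10 smallest adjusted p, the 2 smallest among those called in each list, a fixed set of 20, and genes called in both livers in 1 direction (0 found). The members, the 36 lists (20 of biology, 16 of markers, 666 of 792 entries in the file) and the fixed set were chosen with earlier results of these data known. Lists were described by counts and medians, with no test. The fitting was tested on simulated data. No gene coordinate was converted between builds: gene positions are rn6 and promoters GRCr8.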

Additional observations from a re-analysis of the deposited data

Results flagged for a closer look

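The response of Gsta2 to 30 against 0 mg/kg/d differed between dam and fetus at GD21 by 3.12 ± 0.31 on the log2 scale (edgeR, adjusted p = 0.00127; 0.061 with the dam as a block), higher in the dam and lower in the fetus, in 3 of 3 treated libraries of each liver against all controls.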

How the results depend on the processing

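Numbers of calls moved with the fit more than the values did. For the difference at GD21 (1 gene) there were 60 genes without a filter on low counts, 12 with DESeq2, 4 with all 30 GD21 libraries and 0 with the dam as a block, which ended the Gsta2 call; RLE factors, a minimum of 1 CPM in each liver, scaling without haemoglobin genes and fetal sex as a term gave 1. Leaving out a library gave 1 to 3 and leaving out a dam 0 to 5. In the dam (6 genes) the counts were 115 without the filter, 30 with DESeq2, 11 with all 30 libraries and 34 in the dams alone, with 0 to 16 for a left-out library and 0 to 25 for a left-out dam. In the fetus (2 genes) they were 149, 30, 16 and 0 under the same settings and 0 with fetal sex as a term, with 0 to 39 for a library and 0 to 33 for a dam. At GD 18 (443 genes) they were 6 with the dam block, 2 without a study block term, 970 and 4 in blocks 140 and 143 alone, and 4 to 1069 with a library left out. Without the filter more genes were tested and the median difference was 0.15; the cause of the other shifts was not tested.

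Of the 33 named differences, 31 kept their direction and side of the threshold with the dam block, against 33 with RLE factors. Signs turned for Acot1 (0.091) with the dam block, and for Cyp4a1 (0.079), Acot1 (0.28), Lpl (0.049) and Igfbp1 (0.14) with fetal sex as a term. With libraries left out, differences ranged from −1.72 to 6.25 for Acot1, −0.39 to 1.09 for Vnn1, −0.68 to 0.091 for Lpl, −0.93 to 0.38 for Igfbp1, 0.02 to 1.54 for Pdk4 and −0.32 to −0.01 for Hadha. Dam responses then ranged from −0.21 to 0.56 for Lpl, −0.034 to 1.25 for Pck1 and −0.45 to 0.45 for Scd, and fetal responses from −0.97 to 0.74 for Dhrs7l1 and −1.71 to 0.73 for Slco1a4. With both libraries of a dam left out, signs turned for the differences of Igfbp1 (0.040, 0.12 and 0.052 without 2141, 2129 and 2131), Vnn1 (−0.44) and Pdk4 (−0.092) without 2130, and Acot1 (6.15) and Hadha (0.013) without 2131. The dam responses of Lpl (−0.21 without 2143, −0.00052 without 2129), Pck1 (−0.032 without 2143) and Scd (0.23 and 0.46 without 2143 and 2130) and the fetal responses of Dhrs7l1 (0.72) and Slco1a4 (0.72) without 2129 turned too. Fetal levels of a few counts limit Dhrs7l1, Cyp2b2, Slco1a4 and LOC100910127. With 3 animals a group, a missed threshold does not show equal responses.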
